A study of Mus musculus with 8 samples.

Results

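The solute carriers of anions and organic ions are the membrane proteins that move bicarbonate, chloride, sulfate, carboxylates, carnitine and organic ions in and out of cells. They were taken here as all genes whose symbol is Slc4a, Slc12a, Slc13a, Slc22a or Slc26a with a number, among the probe sets that carry 1 gene symbol, with the probe set of the highest mean over the 8 arrays standing for each gene. The rule found 54 of 18193 genes, with 94 of the 45037 probe sets tested. One of the 54, Slc4a1ap, encodes an adaptor protein and not a carrier, which leaves 53 carriers in 5 families, with 9 in Slc4a, 8 in Slc12a, 5 in Slc13a, 21 in Slc22a and 10 in Slc26a.

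Hippocampal RNA was measured on 8 Affymetrix arrays, 2 in each of 4 groups. MT4m and MT8m are female Tg6799 mice of 4 and 8 months, an Alzheimer's disease model that carries human APP with the Swedish, Florida and London mutations and human PS1 with further familial mutations, both under the Thy1 promoter, which drives expression mostly in neurons. LM4m and LM8m are female littermates of the same ages, and the strain field names Tg6799 for all 8 arrays. No label ties an array to an animal or a pool, so p-values rest on array-to-array spread alone, which can be technical.

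As background, these families divide the work of moving anions. Slc4a proteins carry bicarbonate and set the pH of cells and of the cerebrospinal fluid. Slc12a proteins couple chloride to sodium and potassium, where the importer NKCC1 raises and the exporter KCC2 lowers chloride inside neurons, and so set what GABA does to the cell. Slc13a proteins take up sulfate, citrate and other carboxylates with sodium, Slc22a proteins carry organic cations, organic anions and carnitine, and Slc26a proteins exchange chloride, sulfate, iodide and bicarbonate. Many of them work in the choroid plexus, the epithelium that secretes the cerebrospinal fluid, and in the meninges that cover the brain.

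All values below are log2 expression values, and differences are MT minus LM unless another direction is named, so that 1 unit is a change of 2-fold. A difference is said to have passed where the limma p, adjusted over all 45037 probe sets, was under 0.05. Thy1, part of whose gene the transgenes carry, read between 9.53 and 9.96 on the 4 littermate arrays and between 11.73 and 11.82 on 3 of the MT arrays, but 9.90 on the library labelled MT8m replicate 1, and the microglial gene Cst7 was also low there (1.75, against 8.03 in the other MT8m array). The astrocyte gene Gfap was low there too (7.17, against 9.80 in the other MT8m array). Ttr was not at the littermate level there, at 10.69, where the littermate arrays read 12.43 to 12.83. Whether this library came from a transgenic mouse was not tested. The main counts of the averaged genotype contrast below are therefore also given without it, while the 8-month counts include it. The gene tables published with the study give these arrays the opposite genotype names, so the signs below, which follow the repository labels, are the reverse of those tables. The hippocampal markers Neurod6, Zbtb20 and Prox1 had means of 8.49, 8.85 and 5.39 over the arrays. Of 8 hippocampal genes, 6 were below 0 at 4 months, with a median difference of -0.26. At an unadjusted limma p under 0.05, 2 of the 8 were lower there (25.0%, against 4.38% of all genes). At 8 months 1 of the 8 was below 0, with a median of 0.12. The part of these markers in the carrier results was not tested.

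Markers of the choroid plexus were lower in MT in this dissection, and these values stand beside every genotype comparison that follows. Of 14 choroid plexus genes on the array, 11 passed lower in the averaged contrast, with a median difference of -2.11, and Ttr, the transthyretin made by this epithelium, read between 12.43 and 12.83 in LM and between 10.66 and 10.97 in MT. The mean deviation of these 14 genes from their own average lay between 0.66 and 1.83 on the LM arrays and between -1.22 and -0.97 on the MT arrays. All 9 ependymal genes were below 0 as well, with a median of -0.45, and 8 of them were lower at an unadjusted p under 0.05, though 0 passed. Their mean deviation lay between -0.03 and 0.75 on the LM arrays and between -0.44 and -0.09 on the MT arrays. Of 8 microglial genes, 6 were higher in MT at that level and 0 passed, with a median of 1.14. In the averaged contrast 4.64% of all genes were lower and 2.08% higher at that level, and 0.0600% of all probe sets passed. A list of 11 meningeal genes stood apart on 2 littermate arrays, LM4m replicate 1 and LM8m replicate 2, at 1.04 and 1.11, against values between -0.54 and -0.18 on the other 6 arrays. LM4m replicate 1 also had the largest difference between the 3′ and 5′ Gapdh probe sets, 2.19 against 0.657 to 1.42 on the others, a measure of RNA quality. In bulk tissue, fewer cells of a type and less RNA per cell cannot be told apart. The part of these markers in the carrier results was not tested.

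No carrier passed in any contrast, against 27 of all 45037 probe sets (0.0600%) in the genotype contrast averaged over ages, 9 (0.0200%) at 8 months and 0 at 4 months. At an unadjusted p under 0.05, 9 of 53 carriers (17.0%) were lower in MT in the averaged contrast, where 4.64% of all genes were lower at that level, and 0 of 53 were higher, where 2.08% of all genes were. The 9 were Slc4a2, Slc4a5, Slc12a2, Slc12a4, Slc12a7, Slc13a4, Slc22a5, Slc22a8 and Slc26a7. The study had named Slc4a5, Slc12a2, Slc12a7, Slc13a4 and Slc22a5 from these same arrays, and the families were chosen with that known. The lower count is therefore partly set by that choice and is not independent evidence. The count was 5 of 53 at 4 months (background 4.38%) and 6 of 53 at 8 months (background 2.25%), with 0 of 53 higher at either age (backgrounds 1.36% and 1.29%). The counts at each age rest on 2 arrays per group and moved when 1 array was left out. The 8-month count of lower carriers was smallest, and nearest its background, without LM8m replicate 2. The averaged count moved as well when arrays were left out. Without MT8m replicate 1 it was 7 lower and 1 higher, Slc22a4, when 6.13% of all genes were lower and 3.92% higher. Without LM4m replicate 2 it was 14 lower and 1 higher, Slc26a4 (6.58% and 4.01% of all genes). Without MT4m replicate 1 it was 5 lower and 0 higher (3.35% and 1.42%), and without both LM4m replicate 1 and LM8m replicate 2 also 5 lower and 0 higher (2.89% and 1.71%).

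All 4 MT arrays lay below all 4 LM arrays for 6 carriers, Slc4a2, Slc4a5, Slc12a2, Slc12a7, Slc13a4 and Slc22a5 (11.3% of the 53, background 2.42%). For 1 carrier, the dim Slc22a21, all MT arrays lay above (background 1.28%). Without MT8m replicate 1 the counts were 7 lower (background 5.56%) and 1 higher (background 3.74%). Without both LM4m replicate 1 and LM8m replicate 2 they were 7 lower (background 6.53%) and 5 higher (background 5.41%), so the lower count was then closer to its background. The study had picked Slc4a5, Slc12a2, Slc12a7, Slc13a4 and Slc22a5 from these same arrays, and Slc4a2 stands in a gene table published with it, so the separation of these 6 is not independent evidence.

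**Figure D1:**
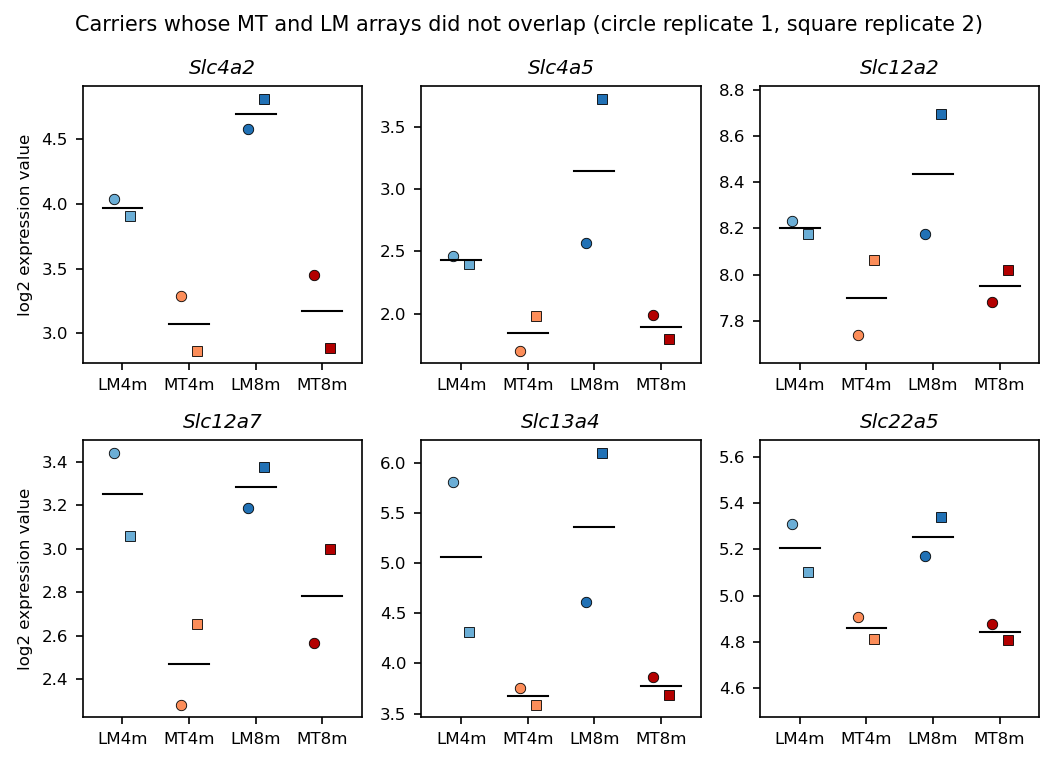
Log2 expression value (y axis, own scale for each gene) of the 6 carriers whose genotypes did not overlap, with the 4 groups on the x axis. A circle is replicate 1, a square replicate 2 and a line the mean of both. Every MT point lies below every LM point, and Slc13a4 and Slc4a5 show the widest gaps between littermate replicates.

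The promoters of the 3 carriers with the largest differences among these 6 are shown because these carriers separated the genotypes. RefSeq sequence (GRCm38.p6) of the 250 bases before the gene start is given 5′ to 3′ on the strand of the gene, for the first listed start, with capitals for 5 motifs on either strand. They are TAATCC (the core read by OTX factors), the CCAAT box, the GC box (GGGCGG), the TATA box (TATAAA) and the core of the cAMP response element (TGACG).
Slc4a2, chr5:24424982-24425231 (plus strand): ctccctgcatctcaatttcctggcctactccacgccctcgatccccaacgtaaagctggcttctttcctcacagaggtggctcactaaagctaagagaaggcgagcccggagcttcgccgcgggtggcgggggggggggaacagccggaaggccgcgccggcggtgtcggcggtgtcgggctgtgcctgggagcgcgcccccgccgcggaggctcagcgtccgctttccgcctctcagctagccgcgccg
Slc4a5, chr6:83237125-83237374 (plus strand): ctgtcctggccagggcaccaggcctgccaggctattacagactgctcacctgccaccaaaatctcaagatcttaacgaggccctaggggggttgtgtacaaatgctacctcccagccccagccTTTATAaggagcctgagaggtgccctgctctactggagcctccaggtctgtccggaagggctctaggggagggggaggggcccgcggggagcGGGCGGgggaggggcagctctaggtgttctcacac
Slc13a4, chr6:35308127-35308376 (minus strand): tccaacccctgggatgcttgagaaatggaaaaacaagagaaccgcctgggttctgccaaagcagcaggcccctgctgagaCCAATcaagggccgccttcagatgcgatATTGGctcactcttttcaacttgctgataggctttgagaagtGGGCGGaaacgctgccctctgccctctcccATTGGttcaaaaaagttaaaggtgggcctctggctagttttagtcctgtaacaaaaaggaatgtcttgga
The Slc4a2 window held none of the 5 motifs, the Slc4a5 window a TATA box on the minus strand and a GC box, and the Slc13a4 window CCAAT in both orientations and a GC box. Windows were found for 43 of the 53 carriers, 53 windows in all. Of these, 41.51% held CCAAT, 37.74% the GC box, 16.98% the TATA box, 7.55% the cAMP core and 7.55% the OTX core, against 33.85%, 32.74%, 12.37%, 17.77% and 6.25% of all 32851 promoter windows of the same length. No motif contains another, and a match in a window is a description only.

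Among the bicarbonate carriers, Slc4a2 had the smallest p of all 53 carriers. Slc4a2 encodes AE2, which exchanges chloride for bicarbonate and lies in the basolateral membrane of the choroid plexus. Slc4a2 read 4.04 and 3.90 in LM4m, 3.29 and 2.87 in MT4m, 4.58 and 4.81 in LM8m, and 3.45 and 2.89 in MT8m, with replicate 1 named first. Every littermate array was higher than every MT array, and the lowest littermate value, 3.90, stood above the highest MT value, 3.45. The averaged difference was -1.21 ± 0.15 (SE), a level 2.31-fold lower in MT (95% interval -1.56 to -0.86, limma adjusted p = 0.052). It was -0.89 ± 0.22 (SE) at 4 months and -1.53 ± 0.22 (SE) at 8 months, with adjusted p of 0.866 and 0.165. Slc4a2 passed in the averaged contrast when dim probe sets were left out (adjusted p = 0.0355), with a trended and robust prior (0.0145), with 1 probe set per gene (0.0276), with the mean of probe sets (0.0318) and without MT8m replicate 1 (-1.35, adjusted p = 0.0143), over a range of 0.0143 to 0.598 for all alternatives. It was -1.12 without both littermate arrays with high meningeal markers.

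Slc4a5 encodes NBCe2, the sodium bicarbonate cotransporter of the apical side of the choroid plexus. Its probe set was dim, with a mean of 2.33 over the arrays, below the median of 2.47 for all probe sets. Slc4a5 read 2.46 and 2.40 in LM4m, 1.70 and 1.98 in MT4m, 2.57 and 3.73 in LM8m, and 1.99 and 1.79 in MT8m. The groups did not overlap, but LM8m replicate 2 stood well above the other littermate arrays, and it is also the array with the highest choroid plexus deviation, 1.83. Averaged over ages, the difference was -0.92 ± 0.22 (SE) (95% interval -1.43 to -0.41, adjusted p = 0.618). At 8 months it was -1.26 ± 0.32 (SE), which became -0.68 without LM8m replicate 2 and -1.84 without LM8m replicate 1, and in the latter case it passed (adjusted p = 0.0254, and 0.0154 for an averaged difference of -1.21). The adjusted p of the averaged difference ranged from 0.0154 to 1 over the alternatives.

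The other 7 Slc4a carriers gave averaged differences between -0.14 and 0.08. Slc4a4, the astrocytic sodium bicarbonate cotransporter NBCe1, read 7.53 and 7.81 in LM4m, 7.72 and 7.84 in MT4m, 7.70 and 7.86 in LM8m, and 7.52 and 8.07 in MT8m, and the groups overlapped (difference 0.06 ± 0.14 (SE)). Slc4a10, a sodium-dependent bicarbonate carrier of neurons and of the choroid plexus, had a difference of -0.04 ± 0.14 (SE) with values from 8.83 to 9.34. Slc4a3, the chloride bicarbonate exchanger AE3 of neurons, had -0.13 ± 0.16 (SE), and Slc4a8, a neuronal sodium-driven exchanger, -0.00 ± 0.14 (SE). For each of these 4 the difference was smaller than its SE. Slc4a1 (the red cell exchanger), Slc4a9 and Slc4a11 were at or below the median level of all probe sets, and the adaptor gene Slc4a1ap gave -0.17 ± 0.09 (SE). In the Slc4a family 7 of 9 carriers were below 0, with a median of -0.04, against 53.5% of all genes and a median of -0.01.

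In the Slc12a family the chloride importer and 2 of the potassium chloride exporters were lower in MT at an unadjusted p under 0.05, while the neuronal exporter KCC2 was not. These were 3 of 8 carriers (37.5%, against 4.64% of all genes), and 0 were higher (against 2.08%). Slc12a2 encodes NKCC1, which takes up sodium, potassium and chloride and is abundant at the apical side of the choroid plexus. Slc12a2 read 8.23 and 8.17 in LM4m, 7.74 and 8.06 in MT4m, 8.18 and 8.70 in LM8m, and 7.88 and 8.02 in MT8m. The lowest LM value, 8.17, was close to the highest MT value, 8.06, and LM8m replicate 2 was again the highest array. Over both ages MT differed by -0.39 ± 0.13 (SE), or 1.31-fold lower (95% interval -0.70 to -0.09, adjusted p = 0.836). All 3 Slc12a2 probe sets were below 0, at -0.39, -0.53 and -0.29. Without both littermate arrays with high meningeal markers the difference was -0.25, and without MT8m replicate 1 it was -0.36.

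Slc12a7, which encodes the exporter KCC4, read 3.44 and 3.06 in LM4m, 2.28 and 2.65 in MT4m, 3.19 and 3.38 in LM8m, and 2.57 and 3.00 in MT8m. All MT arrays were below all LM arrays, with 3.00 the highest in MT and 3.06 the lowest in LM. Averaged over ages, MT differed by -0.64 ± 0.15 (SE) (1.56-fold lower, 95% interval -0.97 to -0.31, adjusted p = 0.548), and a second, dimmer probe set gave -0.02. Without MT8m replicate 1 the averaged Slc12a7 difference was -0.53. Slc12a4, which encodes KCC1, read 3.57 and 3.34 in LM4m, 2.54 and 2.90 in MT4m, 3.14 and 3.22 in LM8m, and 3.13 and 3.30 in MT8m. Here the genotypes were apart at 4 months (-0.74 ± 0.16 (SE), 1.67-fold lower, adjusted p = 0.852) and close together at 8 months (0.04 ± 0.16 (SE)). The change of the genotype difference between the ages was 0.78 ± 0.23 (SE), with an unadjusted limma p of 0.00828 and an adjusted p of 1.

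Slc12a5, which encodes the neuronal exporter KCC2, read 9.69 and 9.83 in LM4m, 9.39 and 9.80 in MT4m, 9.88 and 9.70 in LM8m, and 9.90 and 9.53 in MT8m. The groups overlapped, and the difference was -0.12 ± 0.13 (SE) (95% interval -0.42 to 0.18). The mean deviation of 7 neuronal markers lay between -0.14 and 0.15 on the 8 arrays. All 7 interneuron markers were below 0, with a median of -0.35, 2 of them at an unadjusted p under 0.05 (28.6%, against 4.64% of all genes). Their mean deviation lay between 0.08 and 0.24 on the LM arrays and between -0.51 and 0.06 on the MT arrays, without overlap. The part of these markers in the Slc12a5 values was not tested. The kidney carriers Slc12a1 (NKCC2) and Slc12a3 (NCC) were at or below the median level, with differences of -0.02 ± 0.12 (SE) and 0.05 ± 0.12 (SE). Slc12a9 gave 0.00 ± 0.10 (SE) and Slc12a8 -0.05 ± 0.09 (SE). In the family 6 of 8 carriers were below 0, with a median of -0.09.

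**Figure D2:**
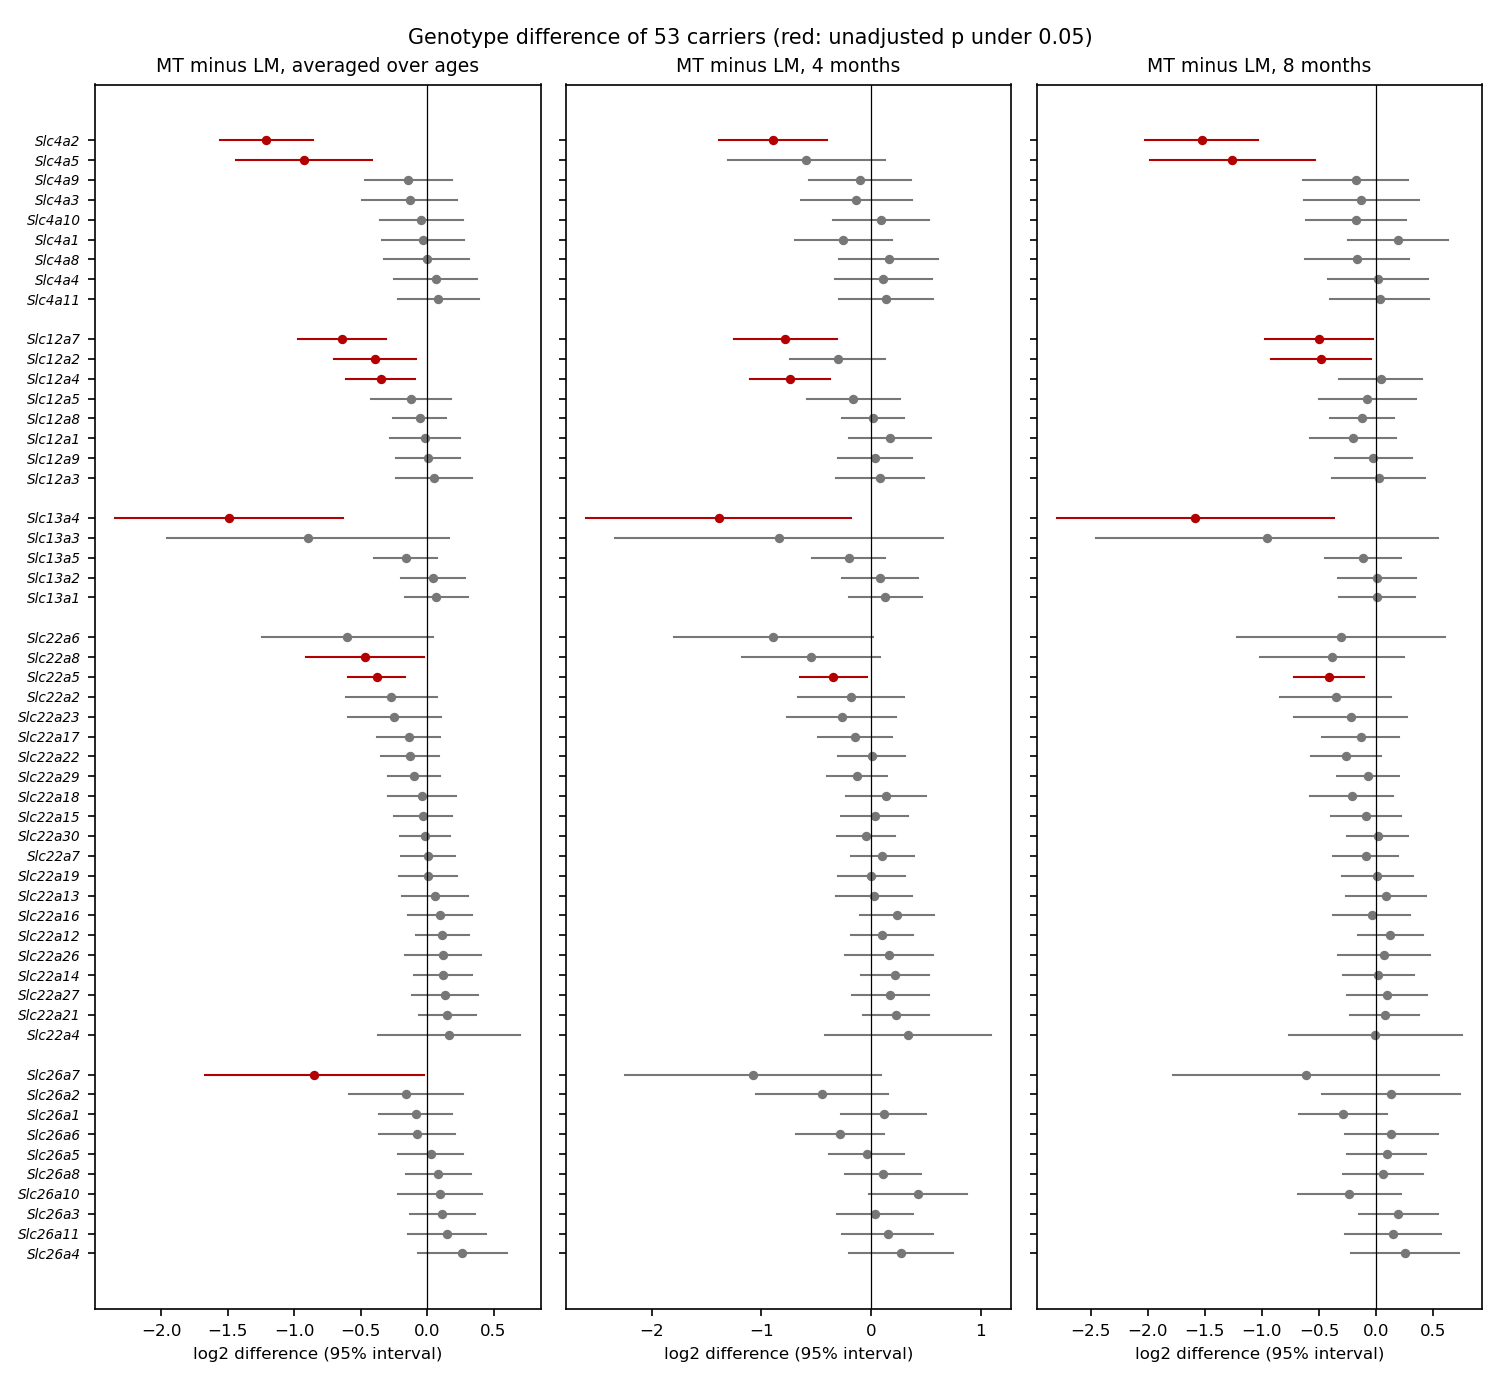
Genotype difference (MT minus LM, log2, x axis) with its 95% interval for the 53 carriers (y axis, grouped by family and ordered by the averaged difference), averaged over ages and at each age. Red marks an unadjusted limma p under 0.05. The red carriers all lie below 0, and 31 of the 53 averaged differences are below 0.

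Of the Slc13a carriers, the sulfate carrier Slc13a4 had the largest averaged genotype difference of all 53 with all arrays in the fit, but not without LM4m replicate 1 and LM8m replicate 2, where it was -0.74 and that of Slc4a2 was -1.12. The dicarboxylate carrier Slc13a3 was high on the same 2 arrays. Slc13a4 encodes NaS2, a sodium sulfate cotransporter. Slc13a4 read 5.81 and 4.31 in LM4m, 3.76 and 3.59 in MT4m, 4.61 and 6.10 in LM8m, and 3.86 and 3.68 in MT8m. MT arrays lay between 3.59 and 3.86, while the littermates fell in 2 pairs, with LM4m replicate 1 and LM8m replicate 2 above their partners by 1.50 and 1.49. Over both ages the difference was -1.49 ± 0.37 (SE) (2.80-fold lower, 95% interval -2.34 to -0.63, adjusted p = 0.686). Without those 2 arrays it was -0.74 ± 0.12 (SE), and without MT8m replicate 1 it was -1.53.

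Slc13a3, the dicarboxylate carrier NaDC3, read 6.44 and 4.17 in LM4m, 4.49 and 4.44 in MT4m, 4.89 and 6.17 in LM8m, and 4.80 and 4.36 in MT8m. LM4m replicate 1 and LM8m replicate 2 stood above all the others, and of the other littermate arrays 1 lay below and 1 above all MT values. Its averaged difference was -0.90 ± 0.46 (SE) (adjusted p = 0.853), and -0.01 ± 0.15 (SE) without those 2 arrays. The kidney and gut carriers Slc13a1 and Slc13a2 gave 0.07 ± 0.10 (SE) and 0.04 ± 0.11 (SE), and the citrate carrier Slc13a5 -0.16 ± 0.10 (SE). In the family 3 of 5 carriers were below 0.

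LM4m replicate 1 and LM8m replicate 2 were the highest 2 of the 8 arrays for 10 of 53 carriers, against 4.06% of all genes. The 10 were Slc12a2, Slc12a7, Slc13a3, Slc13a4, Slc22a2, Slc22a5, Slc22a6, Slc22a8, Slc26a2 and Slc26a7. These are the arrays with high meningeal markers, such as Ogn (6.59 on both, and between 3.19 and 4.26 on the other 6) and Islr (5.64 and 5.57, and between 3.47 and 4.16). No Slc4a carrier was among the 10. The part of the meningeal markers in these carriers was not tested.

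**Figure D3:**
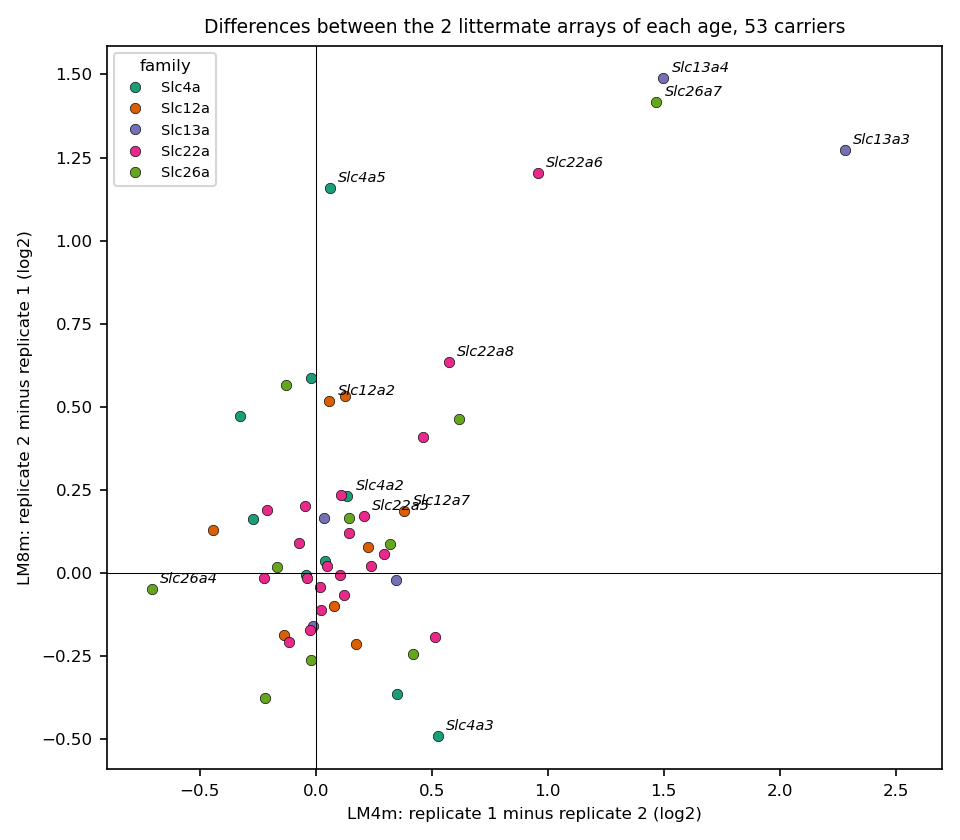
Difference between the 2 littermate arrays of each age for the 53 carriers, at 4 months (x axis, LM4m replicate 1 minus replicate 2, log2) and at 8 months (y axis, LM8m replicate 2 minus replicate 1, log2), coloured by family. Slc13a3, Slc13a4, Slc26a7 and Slc22a6 stand apart at the upper right, Slc4a5 is high on the y axis alone, and most carriers lie near 0 on both axes.

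In the Slc22a family, 2 of 21 carriers (9.52%), Slc22a5 and Slc22a8, were lower in MT at an unadjusted p under 0.05, and 0 were higher. Over all genes 4.64% were lower and 2.08% higher at that level. Slc22a5 encodes OCTN2, the high-affinity carnitine carrier. Slc22a5 read 5.31 and 5.10 in LM4m, 4.91 and 4.81 in MT4m, 5.17 and 5.34 in LM8m, and 4.88 and 4.81 in MT8m. The replicates were close in each group, and the MT arrays, between 4.81 and 4.91, lay below the LM arrays, between 5.10 and 5.34. The averaged difference was -0.38 ± 0.09 (SE) (1.30-fold lower, 95% interval -0.60 to -0.16, adjusted p = 0.679), and it was -0.29 without both littermate arrays with high meningeal markers. Without MT8m replicate 1 the averaged difference was -0.40. A second, dimmer Slc22a5 probe set gave 0.07.

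Slc22a8, the organic anion carrier OAT3 of the choroid plexus, read 3.04 and 2.46 in LM4m, 1.99 and 2.41 in MT4m, 2.44 and 3.07 in LM8m, and 2.56 and 2.17 in MT8m. The highest arrays were again LM4m replicate 1 and LM8m replicate 2, and the other 6 overlapped. Its averaged difference was -0.47 ± 0.20 (SE) (adjusted p = 0.853), and -0.17 without those 2 arrays. Slc22a6, the organic anion carrier OAT1, read 3.37 and 2.41 in LM4m, 2.02 and 1.99 in MT4m, 2.09 and 3.29 in LM8m, and 2.54 and 2.22 in MT8m. It showed the same pair of high arrays, and its difference of -0.60 ± 0.28 (SE) became -0.06 without them.

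Slc22a4, the ergothioneine carrier OCTN1, read 2.90 and 2.85 in LM4m, 3.29 and 3.15 in MT4m, 3.14 and 3.16 in LM8m, and 2.51 and 3.77 in MT8m. The MT8m arrays were 1.27 apart, the widest gap between the MT8m arrays for any of the 53 carriers, with replicate 1 the lowest and replicate 2 the highest of all 8. The averaged difference was 0.17 ± 0.23 (SE) with all arrays and 0.48 without MT8m replicate 1. Microglial markers also differed between these arrays, with mean deviations of -0.66 and 1.71. Slc22a17, a receptor for lipocalin, gave -0.14 ± 0.10 (SE) with values from 8.03 to 8.56, and Slc22a23, a carrier without a known substrate, -0.25 ± 0.15 (SE). The remaining 15 carriers gave averaged differences between -0.27 (Slc22a2) and 0.15 (Slc22a21). In the family 11 of 21 were below 0, with a median of -0.02.

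Slc26a7, an anion exchanger, was the Slc26a carrier with the largest difference, with its 2 highest values on LM4m replicate 1 and LM8m replicate 2. Its probe set was dim, with a mean of 1.91 over the arrays, below the median of all probe sets. Slc26a7 read 3.33 and 1.86 in LM4m, 1.50 and 1.53 in MT4m, 1.37 and 2.79 in LM8m, and 1.41 and 1.52 in MT8m. LM4m replicate 1 and LM8m replicate 2 stood 1.47 and 1.42 above their partners, and LM8m replicate 1 was the lowest of all 8 arrays. The averaged difference was -0.85 ± 0.36 (SE) (adjusted p = 0.853), and -0.13 without those 2 arrays, and a second probe set gave 0.03. Slc26a4, the iodide and chloride carrier pendrin, read 5.56 and 6.27 in LM4m, 6.24 and 6.14 in MT4m, 5.55 and 5.50 in LM8m, and 5.79 and 5.77 in MT8m. It was the carrier with the largest difference above 0, at 0.26 ± 0.15 (SE) (95% interval -0.07 to 0.60), and the genotypes overlapped.

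Slc26a2, the widely expressed sulfate carrier, gave -0.16 ± 0.19 (SE), Slc26a6, an exchanger of chloride, oxalate and bicarbonate, -0.08 ± 0.12 (SE), and the sulfate carrier Slc26a11 0.15 ± 0.13 (SE). The dim members Slc26a1, Slc26a3, Slc26a5, Slc26a8 and Slc26a10 lay between -0.09 and 0.12. In the family 4 of 10 carriers were below 0, with a median of 0.06. Over all 53 carriers, 31 were below 0 (58.5%) with a median of -0.03, against 53.5% and -0.01 for all genes.

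**Figure D4:**
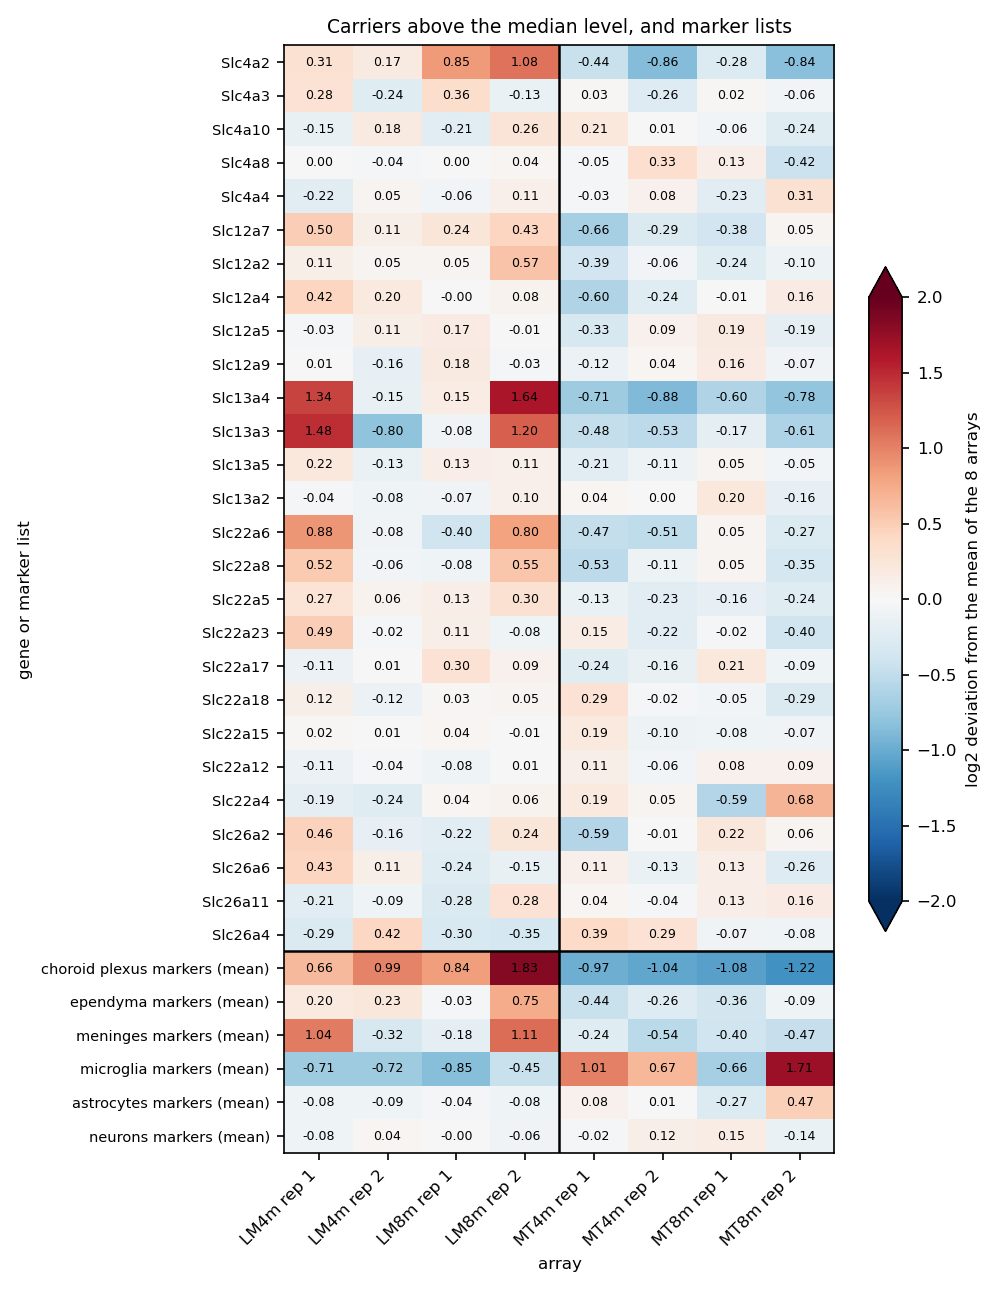
Deviation of each array (x axis) from the mean of the 8 arrays, in log2 units by colour and number, for the 27 carriers above the median level (rows, by family) and the mean of 6 marker lists (rows below the line). Slc4a2 is at -0.28 or below on every MT array, as is the choroid plexus row, while Slc13a3, Slc22a6 and the meninges row are high on LM4m replicate 1 and LM8m replicate 2. Colours end at 2 in either direction.

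Age differences were small for most carriers, and the 4-month arrays overlapped the 8-month arrays for all 53 (backgrounds of 2.44% lower and 1.37% higher at 8 months). With the genotypes averaged, 3 carriers had an unadjusted p under 0.05 (5.66%, background 6.47%), a share near that of all genes. Slc26a4 was lower at 8 months by -0.40 ± 0.15 (SE), although LM4m replicate 1, at 5.56, was at the level of the 8-month littermates. Slc22a17 was higher at 8 months by 0.25 ± 0.10 (SE) and Slc4a2 by 0.41 ± 0.15 (SE). Their adjusted p were 0.704, 0.755 and 0.704.

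In the littermates alone, Slc4a2 was higher at 8 months by 0.73 ± 0.22 (SE), and in MT the age difference was 0.09 ± 0.22 (SE). The difference between these, the interaction, was -0.63 ± 0.31 (SE) (95% interval -1.33 to 0.07, adjusted p = 1), so a larger genotype difference at 8 months was not shown. Slc26a6 was lower at 8 months in littermates by -0.47 ± 0.18 (SE). For the interaction, 2 carriers had an unadjusted p under 0.05 (3.77%, background 2.58%), Slc12a4 as given above and the dim Slc26a10 at -0.66 ± 0.28 (SE).

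**Figure D5:**
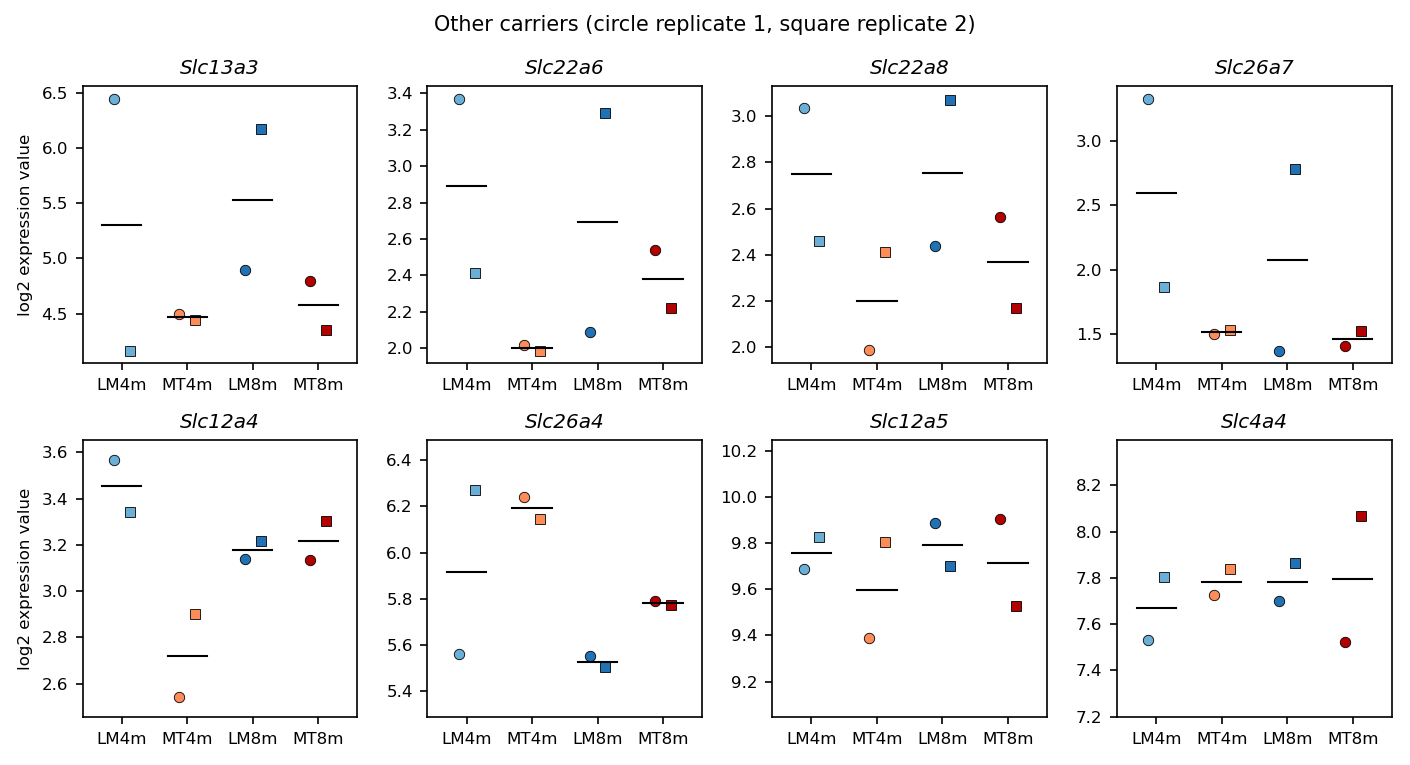
Log2 expression value (y axis, own scale for each gene) of 8 further carriers, with the 4 groups on the x axis (circle, replicate 1, square, replicate 2, line, group mean). Slc13a3, Slc22a6, Slc22a8 and Slc26a7 are high on LM4m replicate 1 and LM8m replicate 2, Slc12a4 is low in MT4m, and Slc12a5 and Slc4a4 overlap between all groups.

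The proteins that work with these carriers were examined in 7 lists, and no gene of them passed in the averaged genotype contrast. Of 12 kinases and regulators of the SLC12 carriers, 1 was lower at an unadjusted p under 0.05 (8.33%, against 4.64% of all genes). In the same list 0 were higher (against 2.08% of all genes), and the median was -0.02. The lower gene was Cab39l, which encodes a scaffold that activates the SPAK and OSR1 kinases, at 5.68 and 5.80 in LM4m, 5.32 and 5.25 in MT4m, 6.04 and 6.52 in LM8m, and 5.22 and 5.40 in MT8m. The groups did not overlap, and the difference was -0.71 ± 0.12 (SE, adjusted p = 0.232). Of 9 Na,K-ATPase subunits and FXYD regulators, which keep the sodium gradient, 0 reached that level (median -0.14).

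Carbonic anhydrases with enzyme activity make the bicarbonate that Slc4a and Slc26a proteins carry. Some members of the family, among them Car10, lack that activity. Of 16 genes of the family, 3 were lower at an unadjusted p under 0.05 (18.8%, against 4.64% of all genes) and 0 higher (against 2.08%), with a median of -0.10. The lower genes were Car14 at -0.68 ± 0.15 (SE, adjusted p = 0.526), Car12 at -0.76 ± 0.28 (SE) and Car10 at -0.52 ± 0.22 (SE). Car14, a membrane-bound enzyme, read 5.03 and 4.79 in LM4m, 4.27 and 4.07 in MT4m, 4.90 and 5.54 in LM8m, and 4.46 and 4.72 in MT8m, without overlap between the genotypes. Of 10 sodium proton exchangers and scaffolds, 0 were lower and 1 was higher, with a median of 0.05.

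For carnitine, which Slc22a5 takes up and fatty acid oxidation uses, 3 of 9 genes were lower and 0 higher at an unadjusted p under 0.05 (median -0.13). They were Cpt2 at -0.46 ± 0.13 (SE), Cpt1a at -0.33 ± 0.09 (SE), both carnitine palmitoyltransferases of mitochondria, and Aldh9a1, an enzyme of carnitine synthesis, at -0.32 ± 0.13 (SE). Cpt1a read 5.54 and 5.34 in LM4m, 5.21 and 5.16 in MT4m, 5.72 in both LM8m arrays, and 5.28 and 5.35 in MT8m, so the highest MT value was just above the lowest LM value. Of 11 genes of sulfate use, 0 reached that level (median 0.02). Of the 15 organic anion transporting polypeptides of the Slco family, 2 were lower and 1 higher (median -0.03), with the thyroxine carrier Slco1c1 at -0.43 ± 0.09 (SE, adjusted p = 0.452), Slco4c1 at -0.31 ± 0.10 (SE) and Slco2b1 at 0.44 ± 0.18 (SE). At that level 4.64% of all genes were lower and 2.08% higher.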

How the data were processed

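Total RNA from hippocampus was hybridised to 8 one-colour Affymetrix mouse arrays, 2 per group, and samples were grouped by their repository descriptions. The authors deposited log2 values from RMA, for which affy is named without a version, and which corrects background, quantile normalizes and summarises the probes of a set. The tables held 45101 probe sets, and 64 Affymetrix controls were left out. The values ran from 0.979 to 12.83 with a median of the probe set means of 2.47, so dim probe sets may be compressed. No scanner files or detection calls were used, and precision is limited by the 2 arrays per group.

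GEO's platform annotation named 34945 probe sets with 1 gene symbol, 932 with several and 9160 with none. Symbols were looked up in RefSeq by Entrez identifier (34741 found). A probe set annotated to both Slc22a29 and Slc22a30 was not used. A linear model with 1 mean per group was applied to all 8 arrays in limma 3.58.1 (lmFit, then eBayes, with 4 residual degrees of freedom, R 4.3.3), and two-sided p-values were adjusted by Benjamini-Hochberg over 45037 probe sets. The contrasts were genotype at each age and averaged, age per genotype and over both, and their interaction, beside a moderated F test over the 4 groups. The code was tested on simulated data. Slides and scan dates were not given.

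The members and the marker and partner lists were chosen with earlier results of these data known, so no p adjusted over a list is given. Named carriers were the 5 that the study names, the 8 smallest p of each genotype contrast, the 4 smallest of each age contrast and the interaction, and up to 4 genes of each partner list, with others named for their role. Alternatives were cyclic loess, a filter on dim probe sets, a trended and robust prior, 1 probe set or the mean of probe sets per gene, fits on the groups of a contrast alone, a replicate block and each array left out.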

Additional observations from a re-analysis of the deposited data

How the results depend on the processing

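None of the 17 carriers chosen by the naming rule passed as reported, so no call could be lost. Of 1886 values of these carriers under the alternatives, 1878 stayed on the same side of the threshold and 8 passed only under the alternative, all of them of Slc4a2 or Slc4a5. A differing sign occurred in 107 values, which passed in neither setting. With all probe sets in place of the brightest, family medians went from -0.21 to 0.01 for Slc13a at 4 months, from -0.17 to -0.0021 for Slc4a at 8 months and from 0.11 to -0.01 for Slc26a at 8 months. The replicate SD was 0.150, 0.199 and 0.180 (median over the members). Of 40 further probe sets of the carriers, 22 had the sign of the brightest in the averaged contrast. With cyclic loess, 4 probe sets passed in the genotype contrast at 4 months (0 as reported). The filter on dim probe sets gave 5 at 4 months, 14 at 8 months (9 as reported), 10 in the F test (6 as reported) and 1 carrier in the averaged contrast (0 as reported). The trended and robust prior gave 7 at 4 months, 22 at 8 months, 24 in the F test, 2 for age in MT (0 as reported) and 1 carrier in the averaged contrast. With 1 probe set per gene, 1 probe set passed at 4 months and 1 carrier in the averaged contrast, and with the mean of probe sets per gene 1 passed at 4 months, 3 at 8 months, 2 in the F test and 1 carrier in the averaged contrast. Fits on the groups of the contrast alone gave 24 probe sets at 4 months and 0 at 8 months. The cause of these changes was not tested.

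Leaving out each array in turn, where a lone array is assumed to vary like the other groups, gave 0 to 12 passing probe sets for the genotype contrast at 4 months, 1 to 95 at 8 months and 5 to 142 averaged (27 as reported), 0 to 2 for age in MT, 0 to 1 for age averaged, 0 to 1 for the interaction and 0 to 58 in the F test. The highest of the averaged, 8-month and F test counts came without MT8m replicate 1. The carriers that passed ranged from 0 to 1 at 8 months and from 0 to 1 averaged (Slc4a2 without MT8m replicate 1, Slc4a5 without LM8m replicate 1). Leaving out both LM4m replicate 1 and LM8m replicate 2, chosen after seeing the data, gave 3 probe sets at 4 months, 0 at 8 months and 3 in the F test.

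The labels do not say what the title numbers stand for, so whether they mark a shared batch is unknown. Same-numbered deviations correlated at 0.24 in LM and -0.17 in MT, so the numbers were not taken as pairs. With the number as a replicate block, 0 probe sets passed in each age contrast and the interaction, and carriers with an unadjusted p under 0.05 in the interaction went from 2 to 4. As a random replicate block it gave 0, 11 and 24 probe sets in the genotype contrasts at 4 months, at 8 months and averaged. A crossed replicate block in MT, added after seeing the data, gave 3 probe sets for age in LM, 2 for age in MT, 3 for age averaged and 1 for the interaction.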
